A study of Larix kaempferi with 6 samples.

Results

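The 46 transcripts described here were high in 2 of 3 drought libraries of Japanese larch (Larix kaempferi). In the remaining drought library they stood at 0 to 1.99 times their highest watered value. They were chosen from 12228 long-read transcripts by deposited FPKM, a count of sequenced fragments divided by the length of the transcript and the size of the library. Each had at least 20 FPKM in both D14-1 and D14-2, was at least 4 times the highest of the 3 watered libraries in each of these, and stayed below 2 times that value in D14-3. All 6 libraries entered this choice, so the levels below describe the set and do not test it.

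D14 stands for 14 d without watering and CK for normally watered controls, with 3 libraries each (D14-1, D14-2 and D14-3; CK-1, CK-2 and CK-3). Both groups were 4-month-old greenhouse seedlings, 1 to a pot, kept at 70% of field capacity or more before the treatment. RNA came from the top 3 cm of the seedling, taken in bulk, so fewer cells of a type and less RNA per cell cannot be told apart. The labels name no clone, family or genotype and do not say that each library was a separate plant, so any p-value reflects only how far these libraries differ among themselves, which may be technical. The tissue label could not be checked against marker genes, as the files pair no identifier with a gene name, and for the same reason no function is given to any transcript.

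As background, plants that run short of water build up the hormone abscisic acid, which closes stomata and switches on genes for dehydrins and other late embryogenesis abundant proteins, sugar and proline synthesis and detoxifying enzymes. Many of these genes are nearly silent in watered tissue, while others are active there and are turned up further. Which of them, if any, are among the transcripts below is not known here.

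The libraries differed somewhat in depth and in other ways. The low FPKM values correspond to an estimated 12800000 fragments in D14-3, the fewest, and up to 17300000 in CK-3, the most. D14-3 also had the fewest transcripts above 0, at 9530, against up to 9654 in D14-1. CK-1 and CK-2 lay close together. They were within 1.5 times of each other for 94.5% of 9317 transcripts with at least 1 FPKM in at least 3 libraries. CK-3 was at least 2 times outside their range for 26.6%. Both shares count transcripts with all controls listed at 0. Levels also drifted with length: the median log2 deviation of transcripts under 500 nt from the mean of all 6 libraries was -0.36 in D14-3, and that of transcripts of 1700 nt and over was -0.60 in CK-3 and -0.31 in D14-1.

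The response was uneven between the drought libraries. With "raised" meaning at least 20 FPKM and at least 4 times the highest CK value, 375 transcripts were raised in D14-1, 307 in D14-2 and 164 in D14-3. D14-1 and D14-2 shared 282 of them, or 2.31% of all transcripts. In D14-3 the 282 divided into 132 that were raised as well, the 46, and 104 that met neither condition. Of the 282, 11 were listed at 0 in all 3 controls and so could not meet the rule, which needs D14-3 below a multiple of the highest control; 8 of these are among the 104, and 4 of the 8 were listed at 0 in D14-3 too. The same rule turned to the other libraries found no transcript. Of 134 raised in D14-1 and D14-3, 0 were below 2 times the highest CK value in D14-2, and 132 were raised there. Of 136 raised in D14-2 and D14-3, 0 were below it in D14-1, and 132 were raised there. These 3 counts share the same controls and describe the libraries.

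**Figure D1:**
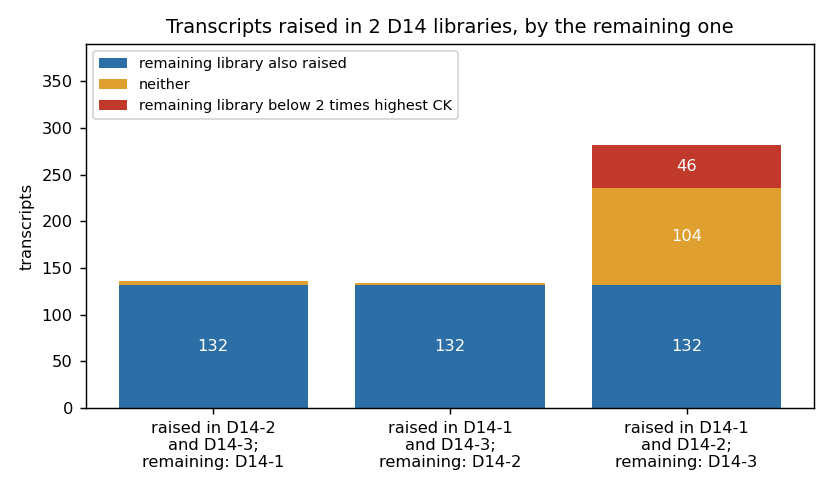
Number of transcripts (vertical axis) raised in each pair of D14 libraries, divided by the state of the remaining library: also raised, below 2 times the highest CK value, or neither. The pair D14-1 and D14-2 holds 282 transcripts, of which 46 were below 2 times the highest CK value in D14-3; the other pairs hold 136 and 134 with none of this kind.

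D14-3 was also the lowest drought library in most of the other transcripts raised in D14-1 and D14-2. It lay below both in 207 of the 236 outside the set, a share tilted by choosing them for high D14-1 and D14-2. The 104 of these that were not raised in D14-3 had to be lower there by definition. Under the same choice for the other pairs, D14-2 was the lowest in 18 of 134 and D14-1 in 17 of 136. Among the 132 raised in all 3, D14-3 was the lowest in 103, D14-2 in 16 and D14-1 in 13, and among the 9317 tested transcripts the shares were 41.7%, 19.0% and 38.8%. Relative to the highest CK value where that was above 0, the remaining library had a median of 4.80 times for D14-3 (271 transcripts), 11.5 times for D14-2 (131) and 12.4 times for D14-1 (133). The 46 are the low end of this spread. D14-3 stood under 0.5 times the highest CK value in 17, between 0.5 and 1 times in 4, and between 1 and 2 times in 25. Just above them, 70 transcripts of the 282 lay between 2 and 4 times, with no empty interval at the limit of 2.

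**Figure D2:**
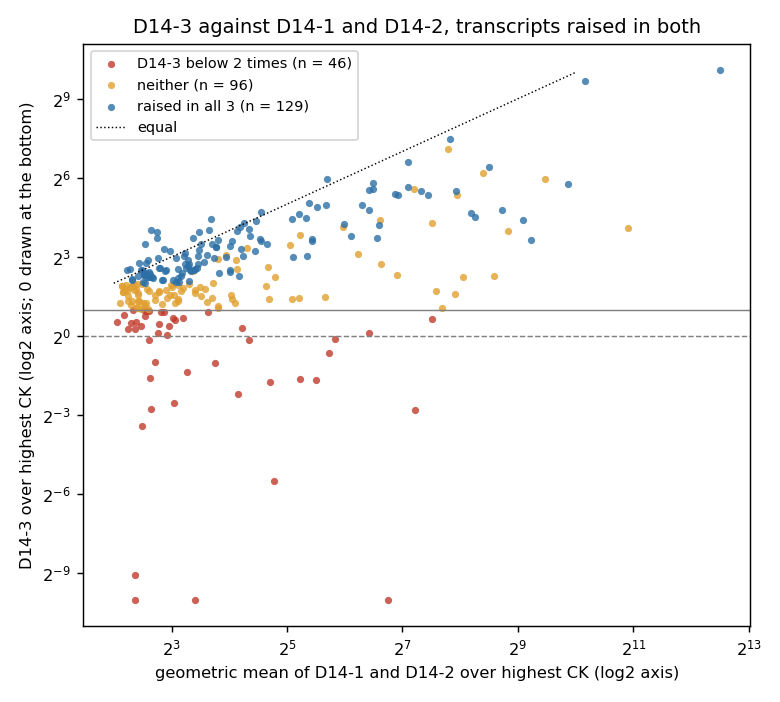
D14-3 relative to the highest CK value (vertical log2 axis) against the geometric mean of D14-1 and D14-2 relative to the same value (horizontal log2 axis) for the 271 of 282 transcripts with a control value above 0; each point is 1 transcript and the dotted line marks equal ratios. The 46 transcripts lie below the solid line at 2 by their definition. Of them, 3 were listed at 0 in D14-3 and are drawn at the bottom. D14-3 lay below both D14-1 and D14-2 in 103 of the 132 raised in all 3. The 104 in neither set had to lie below both by definition.

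In the drought libraries the 46 ran from 29.5 to 4157 FPKM in D14-1 (median 133.2), from 22.6 to 2983 in D14-2 (median 97.4) and from 0 to 881.1 in D14-3 (median 9.58). In the watered libraries their medians were 7.70 FPKM in CK-1, 8.38 in CK-2 and 6.47 in CK-3. Their summed FPKM made up 1.74% of D14-1, 1.41% of D14-2 and 0.218% of D14-3, against 0.140% of CK-1, 0.139% of CK-2 and 0.142% of CK-3. The limit on D14-3 holds its sum down. The 5 highest members supplied 61.5% of the sum in D14-1 and 77.8% in D14-3, so these sums rest on few transcripts.

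**Figure D3:**
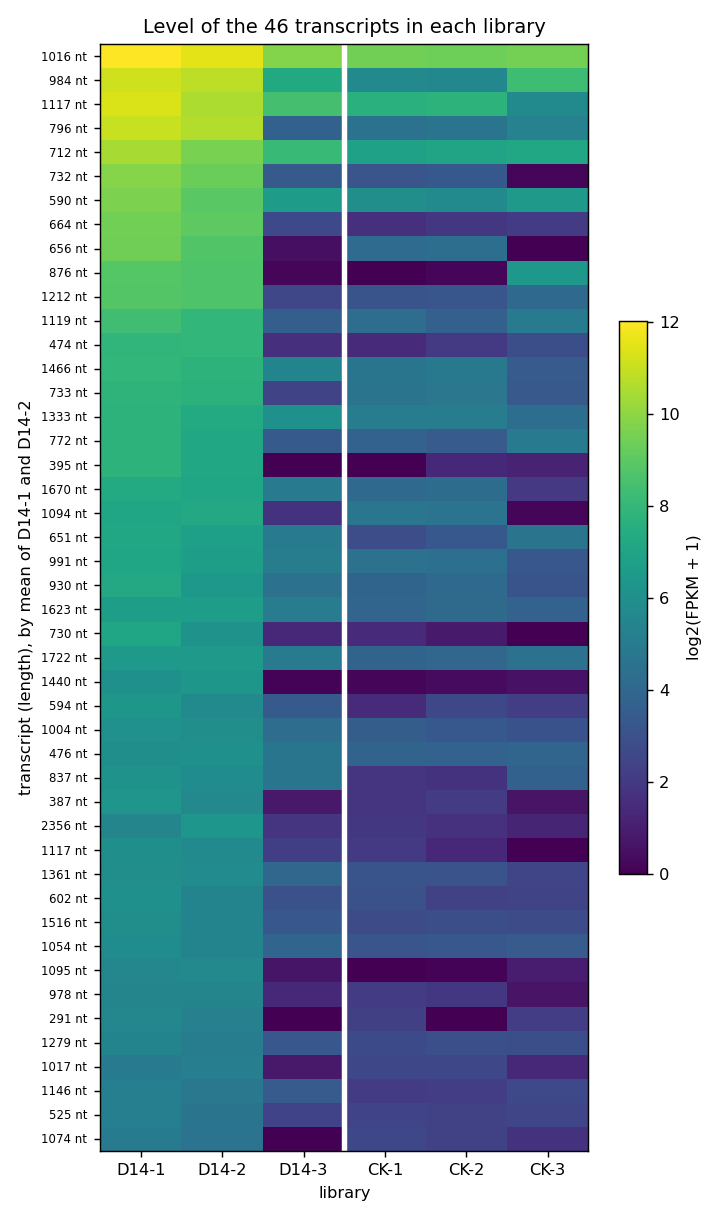
Levels of the 46 transcripts (rows, labelled by length and ordered by the geometric mean of D14-1 and D14-2) in each library (columns, D14 left of the white line and CK right of it), as log2(FPKM + 1). Columns D14-1 and D14-2 are brighter than the CK columns and than D14-3 in every row, as the rule requires.

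D14-1 and D14-2 were within 1.5 times of each other in 34 of the 46 (73.9%), a share near the 78.8% of the 132 raised in all 3 and the 69.0% of the tested transcripts. The ratio of D14-1 to D14-2 ran from 0.551 to 1.89. D14-1 was the higher one in 36 of 46 (78.3%), with a median ratio of 1.29. The same order held in 94 of the 132 transcripts raised in all 3 (71.2%, median ratio 1.10) and in 52.5% of the 5918 transcripts at 20 FPKM or more in both libraries (median ratio 1.02). Where D14-3 was above 0, the lower of D14-1 and D14-2 exceeded it by 2.30 to 2581 times, with a median of 5.55 times over 43 transcripts.

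The most abundant of the 46 was Lo_f19p60_1016_transcript25041_g1, of 1016 nt. It had 4157, 2983 and 881.1 FPKM in D14-1, D14-2 and D14-3, against 708.3, 655.9 and 737.9 FPKM in CK-1, CK-2 and CK-3. D14-3 was above every control, but by only 1.19 times the highest, so the groups did not overlap. This transcript was plentiful in watered tips and is also the one nearest to the limit of 4 times, with D14-2 at 4.04 times the highest control.

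Lo_f11p60_664_transcript30316_g1, of 664 nt, had the steepest difference among members with at least 1 FPKM in some control. Its values were 697.2, 521.1 and 5.19 FPKM in D14-1, D14-2 and D14-3, against 2.2, 2.85 and 3.31 FPKM in CK-1, CK-2 and CK-3. The lower of D14-1 and D14-2 was 157.4 times the highest control, whereas D14-3 was 1.57 times that control.

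In 8 of the 46, D14-3 lay below all 3 controls. For Lo_f2p43_1074_transcript6274_g1, of 1074 nt, the FPKM values were 29.5, 22.6 and 0 in D14-1 to D14-3, against 5.03, 4.16 and 2.39 in CK-1 to CK-3. Lo_f2p60_1017_transcript23610_g7, of 1017 nt, had 29.5, 34.3 and 0.75 FPKM in the same order, against 5.03, 5.09 and 1.63 FPKM. Both were modest in D14-1 and D14-2 and had D14-3 under the lowest control.

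Other members of this kind were far more abundant. One of 796 nt had 2039, 1583 and 12.5 FPKM in D14-1, D14-2 and D14-3, against 22.4, 23.5 and 39.5 FPKM in CK-1, CK-2 and CK-3. Another, of 1212 nt, had 452.3, 412.6 and 4.96 FPKM, against 7.59, 8.18 and 16.5 FPKM. One of 733 nt had 226.0, 210.5 and 4.57 FPKM, against 23.9, 26.4 and 9.41 FPKM. In each of these 3, 2 drought libraries stood above every control and the remaining one below every control, so the drought values enclosed the watered ones. Over the 8, the lower of D14-1 and D14-2 was 4.49 to 131 times the highest control. The 131 belongs to a member of 1440 nt with controls of only 0.12, 0.29 and 0.49 FPKM and 0.07 in D14-3. Members of 1119 and 772 nt were only just below the lowest control in D14-3, at 11.43 against 11.76 and 9.53 against 10.03 FPKM.

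In 13 members D14-3 lay inside the range of the controls, and here the controls themselves were often far apart. CK-3 was at least 2 times outside the range of CK-1 and CK-2 in 9 of these 13. A wide control range is easier for D14-3 to fall inside, so this count is partly built in. The member of 876 nt had 465.9, 413.0 and 0.16 FPKM in D14-1, D14-2 and D14-3, against 0, 0.14 and 85.2 FPKM in CK-1, CK-2 and CK-3. At the estimated depth, its 0.16 FPKM in D14-3 corresponds to 1.20 fragments. It was thus near 0 in 3 libraries that cross the groups and high in the other 3.

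The member of 656 nt had 676.0, 428.5 and 0.43 FPKM in D14-1, D14-2 and D14-3, the last an estimated 2.01 fragments, against 17.3, 19.6 and 0 FPKM in CK-1, CK-2 and CK-3. One of 1094 nt had 134.2, 153.7 and 2.38 FPKM, against 25.6, 23.1 and 0.15 FPKM. In both, D14-3 and CK-3 were the lowest libraries of their groups. The member of 984 nt had CK-3 on the other side, with 2283, 1818 and 154.8 FPKM in D14-1 to D14-3, against 52.2, 47.1 and 310.5 FPKM in CK-1 to CK-3.

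For 3 members D14-3 was listed at 0, a value that can also be a failed estimate. Besides the 1074 nt transcript named above, these were 1 of 395 nt, with 216.3 and 140.2 FPKM in D14-1 and D14-2, against 0, 1.61 and 1.31 FPKM in CK-1 to CK-3, and 1 of 291 nt, with 46.4 and 37.2 FPKM, against 3.90, 0 and 3.54 FPKM. The shorter one is the shortest of the set and barely exceeds the 280 to 290 nt subtracted from length in the depth estimate. That estimate gives it 7.40 and 0.53 fragments in D14-1 and D14-2, against 0.61, 0 and 0.67 in CK-1 to CK-3. At this length the estimate turns on the nt subtracted, 280 in D14-1 and 290 in D14-2, and is unreliable. The values of this member may still rest on very few fragments.

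In the remaining 25 members D14-3 was above all controls, by 1.03 to 1.99 times the highest. They were mostly moderate in the other drought libraries too: the lower of D14-1 and D14-2 was a median of 5.34 times the highest control, and 10 times or more in 3 of the 25. The corresponding medians were 14.5 times in the 13 members inside the control range and 8.22 times in the 8 below it, with 8 of 13 and 3 of 8 at 10 times or more. The 732 nt member was one of these 3 among the 25, with 908.1, 631.3 and 9.68 FPKM in D14-1 to D14-3, against 7.98, 8.87 and 0.13 FPKM in CK-1 to CK-3. The member of 476 nt was closer to the limits, with 62.7, 63.7 and 24.3 FPKM in D14-1 to D14-3, against 13.1, 12.7 and 14.0 FPKM in CK-1 to CK-3.

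Members close to the limits of the rule had near neighbours outside it. Inside the limit of 2 for D14-3, transcripts of 837 and 1333 nt stood at 1.99 and 1.97 times the highest control, and outside it transcripts of 406 and 977 nt stood at 2.04 and 2.05 times. At the limit of 20 FPKM, the lower of D14-1 and D14-2 was 22.6 and 23.8 FPKM in the 2 lowest members and 19.5 and 18.4 FPKM in the 2 nearest transcripts left out. At the limit of 4, the corresponding ratios were 4.04 and 4.15 inside and 3.95 and 3.93 outside.

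Levels in watered tips varied widely among the 46. The highest control value of the 46 ran from 0.49 to 737.9 FPKM, with a median of 11.6, against 12.9 for the 132 transcripts raised in all 3 drought libraries and 44.4 for the 9317 tested. It was under 1 FPKM in 2 of the 46, 1 to 5 FPKM in 9, 5 to 10 FPKM in 10, 10 to 50 FPKM in 19 and 50 FPKM or more in 6. Members made up 2 of 25 (8.0%) of the transcripts raised in D14-1 and D14-2 from a highest control above 0 and under 1 FPKM, 19 of 99 (19.2%) from 1 to 10 FPKM, 19 of 115 (16.5%) from 10 to 50 FPKM and 6 of 32 (18.8%) from higher levels. The limit for D14-3 is a multiple of the control, so a member with controls near 0 had to be near 0 in D14-3 as well. In D14-1 and D14-2 the geometric mean had a median of 107.7 FPKM in the 46, against 250.2 FPKM in the 132.

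The controls of the 46 were less even than those of the tested transcripts. CK-1 and CK-2 were within 1.5 times of each other in 35 of 46 (76.1%), against 87.9% of the 132 and 94.5% of the tested. CK-3 was at least 2 times outside the range of CK-1 and CK-2 in 21 of 46 (45.7%), against 37.9% of the 132 and 26.6% of the tested. It was above that range in 8 of the 21 and below it in 13. In the 132 and the tested, CK-3 was also counted as outside where all controls were listed at 0. That holds for 3 of the 132, and no member is of this kind. The highest control also sets the limits of the rule, so these shares draw partly on values that the choice used. The 46 were also lower in the controls than the tested transcripts, with a median highest value of 11.6 against 44.4 FPKM. The parts of level and of the choice in these shares were not tested.

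The members were short to medium in length, with no single size. Length ran from 291 to 2356 nt with a median of 987.5 nt. The median was 954 nt for the 132 transcripts raised in all 3 and 1172.5 nt for all 12228. At the quartiles the 46 were shorter than the 132, at 676 and 1139 nt against 785.5 and 1295 nt. Of the 46, 5 were under 500 nt, 13 were 500 to under 800 nt, 17 were 800 to under 1200 nt, 9 were 1200 to under 1700 nt and 2 were longer. Taken as a share of the 282, the 46 made up 26.3% of 19 transcripts under 500 nt, 17.6% of 74, 15.0% of 113 and 18.0% of 50 in the next classes, and 7.69% of 26 transcripts of 1700 nt and over. D14-3 itself stood lower in short transcripts, by a median log2 deviation of -0.36 under 500 nt, -0.23 at 500 to under 800 nt and -0.09 at 800 to under 1200 nt, against 0.14 at 1700 nt and over. With a smooth length trend removed from every library, 43 transcripts met the rule, 37 of them among the 46.

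**Figure D4:**
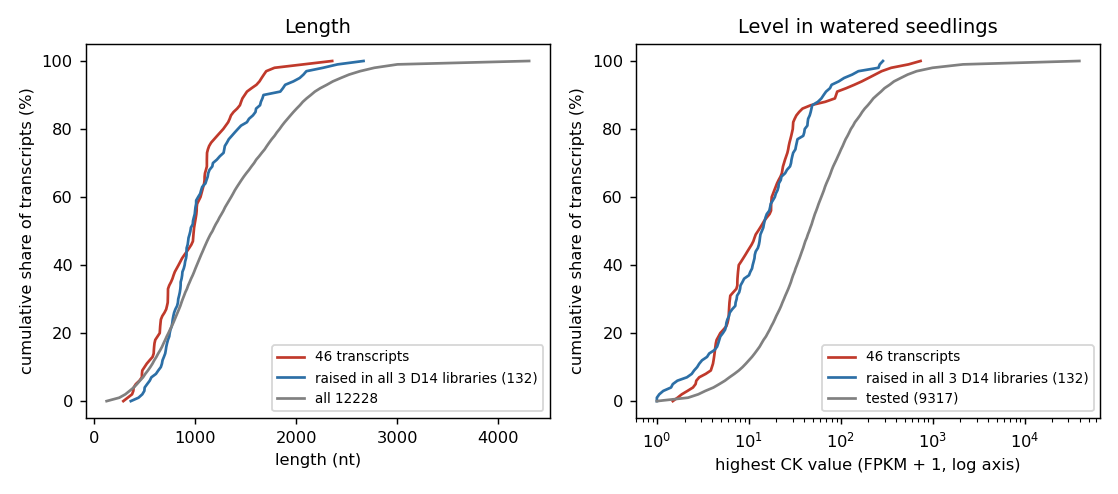
Cumulative share of transcripts (vertical axes, %) by length in nt (left) and by the highest CK value in FPKM + 1 on a log axis (right), for the 46 transcripts, the 132 raised in all 3 D14 libraries and all 12228 or the 9317 tested. The length curves of the 46 and the 132 meet near the middle, with medians of 987.5 and 954 nt. At the quartiles the 46 are shorter, at 676 and 1139 nt against 785.5 and 1295 nt. The medians of the highest CK value are 11.6 and 12.9 FPKM. The 46 run higher in the top tail, at 199.3 against 107.8 FPKM at the 0.95 quantile. Both sets lie left of the grey curve over most of their range.

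The identifiers carry one more property that the rule did not use. By the naming habit of long-read isoform clustering, the number after f would count the full-length reads behind a transcript, although no source used here states this for these identifiers. The number was 2, the lowest in the series, in 30 of the 46 (65.2%), in 50 of the 132 raised in all 3 (37.9%) and in 61.5% of all 12228. It was 5 or more in 9 of the 46 (19.6%), in 31.8% of the 132 and in 15.1% of all. The member with the highest such number, 44, had 795.3, 485.1 and 97.9 FPKM in D14-1, D14-2 and D14-3, against 59.5, 53.3 and 90.9 FPKM in CK-1, CK-2 and CK-3. The set raised in all 3 was also the more abundant one in D14-1 and D14-2, and the samples behind the long reads are not described in the sources used here.

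Fitted across all transcripts, the drought against watered comparison called part of the set. Of the 46, 44 passed the filter on low values, and members of 1440 and 1095 nt did not, with at least 1 FPKM in D14-1 and D14-2 alone. All 44 had a positive log2 change, a sign that the rule largely fixes, with a median of 2.35 on the log2(FPKM + 1) scale against 0.05 over the 9317 tested. Of the 44, 17 passed as higher in D14 (limma, Benjamini-Hochberg adjusted p under 0.05), where 10.3% of all tested transcripts passed as higher. The rule used this contrast, so the count is not evidence of a drought response. All 17 were among the 25 members with D14-3 above every control, a separation of the groups shown by 23.1% of the tested transcripts. Of the 12 tested members with D14-3 inside the control range and the 7 below it, limma called 0 (lowest adjusted p = 0.0786 and 0.195), with 4 and 0 at an unadjusted p under 0.05.

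The calls depended on single libraries. The rule made D14-3 low and the other 2 high, so losses and gains on leaving out a drought library are partly built in. The share called over all tested transcripts changed as well, and the 2 parts cannot be told apart. Without D14-3, 42 of the 44 passed as higher, where 11.5% of the tested transcripts did, and the median log2 change of the 44 was 3.52. The 2 that still did not pass were the members of 876 and 1094 nt, in which CK-3 stood far from the other controls (limma adjusted p = 0.0585 and 0.0879). Without D14-1, limma called 0 of the 44 (19 at an unadjusted p under 0.05), where 5.65% of all passed as higher, and without D14-2 also 0 (again 19), where 3.97% did. Leaving out CK-1 gave 1 call (5.41% of all passed as higher), leaving out CK-2 gave 2 (5.26%) and leaving out CK-3 gave 8 (11.8%). With the close pair CK-1 and CK-2 averaged into 1 sample, 3 of the 44 passed, where 5.26% of all did. The median log2 change of the 44 moved little in these, to 2.45, 2.47 and 2.27 without CK-1, CK-2 and CK-3 and 2.41 with the pair averaged, against 2.35 with all libraries.

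For the named transcripts, values with and without D14-3 are given as a description. Leaving out the library that the rule made low must raise the change. The median SE of the 44 tested members fell too, from 0.83 to 0.44, though that of the 837 nt member rose from 0.63 to 0.65. Over all 9317 tested transcripts the median SE went from 0.33 to 0.34. The rule set D14-3 apart from D14-1 and D14-2, so the fall in the members is partly built in. The log2 change of Lo_f19p60_1016_transcript25041_g1 was 1.66 ± 0.55 (SE, limma adjusted p = 0.0744) with all libraries and 2.33 ± 0.26 (SE, limma adjusted p = 0.00266) without D14-3. For Lo_f11p60_664_transcript30316_g1 it was 5.12 ± 1.66 (SE, limma adjusted p = 0.0714) and 7.33 ± 0.30 (SE, limma adjusted p = 0.000145). For Lo_f2p43_1074_transcript6274_g1 it was 0.92 ± 1.22 (SE, limma adjusted p = 0.644) and 2.51 ± 0.38 (SE, limma adjusted p = 0.00787). For Lo_f2p60_1017_transcript23610_g7 it was 1.43 ± 1.12 (SE, limma adjusted p = 0.417) and 2.84 ± 0.47 (SE, limma adjusted p = 0.0102).

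**Figure D5:**
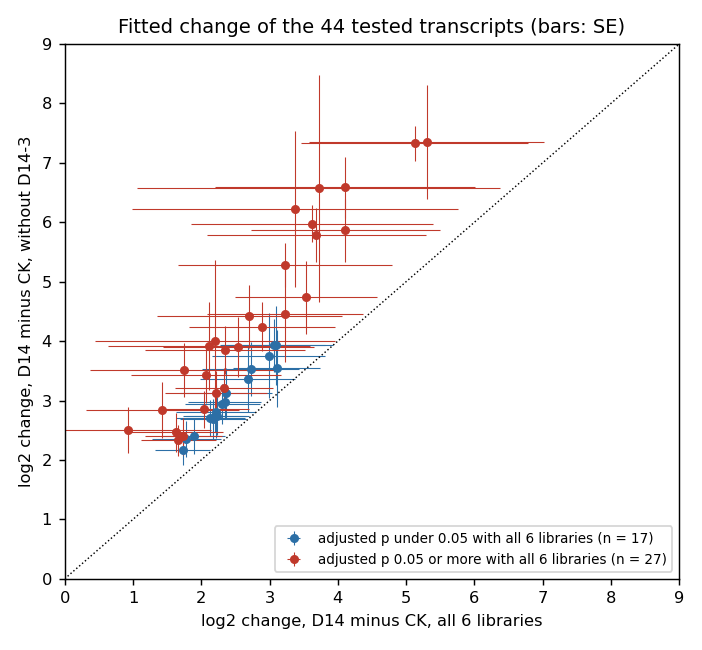
Log2 change, D14 minus CK, of the 44 tested transcripts fitted without D14-3 (vertical axis) against that fitted with all 6 libraries (horizontal axis), with bars for the SE and a dotted line at equality. All points lie above the line; 17 transcripts had an adjusted p under 0.05 with all libraries and 42 without D14-3.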

How the data were processed

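The authors deposited 1 table per library with FPKM values rounded to 2 decimals, a unit named per the file headers, for the same 12228 transcripts. Bowtie2 2.2.3, HISAT2 2.1.0 and HTSeq 0.6.0 are named per the submitters' processing notes; their roles, the reference, the counting rule and any use of strand are unstated there. FPKM is relative, so a rise of some transcripts lowers others. Length was read from the identifier. Low FPKM values times length minus 280 or 290 nt fell within 0.1 of whole fragments for 65.8% to 70.9% of values under 6 fragments, so depth is an estimate and no count test was run.

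The 46 members, the named transcripts and the comparisons were chosen with earlier results of these data known. Named identifiers follow a rule: the highest mean of D14-1 and D14-2, the steepest ratio to the highest CK value, and the 2 members with D14-3 lowest against the lowest control of at least 1 FPKM. Members given by length alone were picked after their values were seen.

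The fit was limma 3.58.1 (R 4.3.3) with a mean-variance trend on log2(FPKM + 1), all 6 libraries and no covariate. It covered 9317 transcripts with at least 1 FPKM in at least 3 libraries, with Benjamini-Hochberg adjusted p. The tested transcripts were kept the same when libraries were left out. A log2(FPKM + 1) change understates low transcripts.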

Additional observations from a re-analysis of the deposited data

How the results depend on the processing

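With the rule applied to D14-1 or D14-2 as the library left behind, the count stayed at 0 under 3 scalings, removal of the length trend, each control left out and limits of 10 or 40 FPKM, while with D14-3 left behind it ran from 36 to 57. The set of 46 became 85 and 25 at limits of 3 and 6 times, 83 with D14-3 allowed up to 3 times, and 43 to 92 when the condition on 1 library was dropped, the highest without D14-2. The limits in times were changed only with D14-3 as the library left behind. Upper quartile and median ratio scaling each gave 36 transcripts, 33 and 30 of them among the 46. The median of D14-3 relative to the highest control, 1.08 as deposited, was 0.996 with upper quartile factors, 1.00 with median ratios, 1.20 at equal FPKM sums, 1.10 with the length trend removed, 1.20 with CK-1 and CK-2 averaged and 1.14 to 1.26 without a control.

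Over all tested transcripts 1860 passed (limma), 742 to 2623 with a library left out (lowest without D14-2, highest without CK-3), 919 with CK-1 and CK-2 averaged, 2824 with the length trend removed and 701 at 0.01. Members called numbered 17, and 0 to 42 with a library left out, 3 with CK-1 and CK-2 averaged and 0 at 0.01 (29 at an unadjusted p under 0.05). With the replicate number as a block, 1428 transcripts and 14 members passed; the labels give no pairing, and the deviations of same-numbered libraries correlated at -0.15, 0.23 and -0.03. The length trend in the fit, the 0.01 threshold, the averaged controls in the rule and the limits of 10 and 40 FPKM for all 3 libraries were added after seeing the data. The causes of these shifts were not tested. Depth limits the lowest values: 1 fragment on 1200 nt was worth 0.0628 to 0.0859 FPKM.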

Other observations

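Lowered transcripts had a smaller counterpart of the 46. With at least 20 FPKM in every control and at most the lowest control divided by 4 in both D14-1 and D14-2, 161 transcripts were lowered in both, and in 14 of them (8.70%) D14-3 stayed above 0.5 times the lowest control. The same count was 0 of 97 with D14-2 as the remaining library and 2 of 110 with D14-1. Among raised transcripts the corresponding shares were 46 of 282 (16.3%), 0 of 134 and 0 of 136. In the other direction, 11 transcripts were raised in D14-3 while D14-1 and D14-2 were below 2 times the highest control, against 5 raised in D14-1 alone and 0 in D14-2 alone. These counts share the same controls and were not tested.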
